A study of Homo sapiens with 6 samples.

Results

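The S-phase genes are a list of 39 genes whose transcripts are commonly used to place a cell in DNA synthesis, and all 39 were found by symbol among the 59608 genes of the count table. RNA of HepG2 cells, an established human liver cancer cell line, was sequenced in 6 libraries. In all 6 the endogenous VEZF1, a zinc finger transcription factor, had been targeted with a lentivirus-encoded guide RNA, and the 3 VEZF1-WT libraries came from cells given back the wild-type protein, the 3 VEZF1-2A libraries from cells given back a form in which the serines that carry O-GlcNAc are alanine. The comparison addresses what the sugar-bearing serines of VEZF1 change in the transcriptome, and no library of unedited cells or of cells without re-expression was analysed here. The labels do not say whether the replicates were separate cultures, so the p-values measure only the spread between these libraries, which may be technical.

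S phase is the part of the cell cycle in which the genome is copied. Origins are loaded with the MCM helicase before S phase and fired within it, and the polymerases, the sliding clamp, the nucleotide-making enzymes and the histone chaperones are needed at the same time. Most of their genes are known targets of the E2F transcription factors, which are freed when cyclin-dependent kinases inactivate the retinoblastoma protein, and their transcripts rise towards the start of S phase in dividing cells.

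Promoters of 31 of the 39 genes were at hand, from RefSeq on GRCh38.p14, as 250 bases before and 50 bases after the annotated start. The others were MCM4, MCM5, CCNE2, WDR76, DSCC1, E2F8, POLD3 and ATAD2. An E2F site was taken as TTTGGCGC, TTTGCCGC, TTTCGCGC or TTTCCCGC on either strand. Of the 31 promoters, 15 (48.4%) held at least 1 such site, beside 3.31% of 35116 promoters in all and 5.24% of the 11086 promoters whose genes were tested. A match of these letters is a description and not a measured binding site. The promoters below are 4 with matches of different kinds and that of CHAF1B, which held no match. CHAF1B was the member with the smallest p between the groups. They are written 5′ to 3′ along the gene's strand with E2F matches in capitals. That of PCNA lies at chr20:5126573-5126872 on the minus strand, MCM6 at chr2:135876394-135876693 on the minus strand, CDC6 at chr17:40287629-40287928 on the plus strand, HELLS at chr10:94545538-94545837 on the plus strand and CHAF1B at chr21:36385142-36385441 on the plus strand.
PCNA: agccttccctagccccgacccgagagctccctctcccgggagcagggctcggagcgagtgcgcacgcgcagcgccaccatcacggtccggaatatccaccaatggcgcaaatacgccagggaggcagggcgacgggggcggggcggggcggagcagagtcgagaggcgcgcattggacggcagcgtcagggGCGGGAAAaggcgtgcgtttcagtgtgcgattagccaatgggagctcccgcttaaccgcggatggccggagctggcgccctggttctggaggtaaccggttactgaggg
MCM6: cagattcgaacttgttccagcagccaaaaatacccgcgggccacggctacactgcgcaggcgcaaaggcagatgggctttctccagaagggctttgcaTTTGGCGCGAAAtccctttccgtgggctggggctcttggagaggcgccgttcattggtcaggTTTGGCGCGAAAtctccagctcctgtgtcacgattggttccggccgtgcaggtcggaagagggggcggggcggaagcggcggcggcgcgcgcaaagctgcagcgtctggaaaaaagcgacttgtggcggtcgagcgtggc
CDC6: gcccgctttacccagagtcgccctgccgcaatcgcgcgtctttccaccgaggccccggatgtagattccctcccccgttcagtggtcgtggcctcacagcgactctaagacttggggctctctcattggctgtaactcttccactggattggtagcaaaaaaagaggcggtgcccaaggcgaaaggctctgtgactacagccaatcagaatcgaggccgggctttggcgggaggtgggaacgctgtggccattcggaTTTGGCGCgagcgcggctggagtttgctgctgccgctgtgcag
HELLS: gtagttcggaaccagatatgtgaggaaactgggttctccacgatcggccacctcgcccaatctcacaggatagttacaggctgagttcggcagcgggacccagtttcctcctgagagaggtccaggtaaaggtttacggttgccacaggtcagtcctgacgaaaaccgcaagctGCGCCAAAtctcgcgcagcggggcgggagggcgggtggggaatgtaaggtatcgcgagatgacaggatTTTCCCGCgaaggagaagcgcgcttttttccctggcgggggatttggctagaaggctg
CHAF1B: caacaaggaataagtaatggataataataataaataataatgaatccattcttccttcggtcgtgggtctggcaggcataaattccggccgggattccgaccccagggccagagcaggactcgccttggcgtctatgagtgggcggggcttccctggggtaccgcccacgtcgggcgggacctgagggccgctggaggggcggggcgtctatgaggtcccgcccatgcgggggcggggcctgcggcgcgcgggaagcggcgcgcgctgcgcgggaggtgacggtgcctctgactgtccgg
In MCM6 the 12 capitals at each place hold a pair of matches on opposite strands that share letters, and the promoter thus counted 4. PCNA held 1 match, on the strand opposite to the gene and next to a GC box that overlaps it. CDC6 held 1, just inside the transcribed part, and HELLS held 2 on opposite strands.

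The VEZF1-WT libraries held 47414775, 35272710 and 57199396 counts for replicates 1 to 3, and the VEZF1-2A libraries held 28756765, 39565464 and 33966492. Levels are given as CPM, a gene's counts relative to the library's total after scaling by trimmed means (TMM), which makes libraries of different depth comparable. VEZF1 itself was at 59.2, 45.5 and 39.9 CPM in VEZF1-WT and at 46.1, 48.5 and 38.8 CPM in VEZF1-2A (48.2 ± 9.94 against 44.5 ± 5.06, SD, n = 3 each), and the groups overlapped (exact two-sided permutation test, p = 0.7). These counts add the endogenous transcript and the re-expressed one and do not check the labels. Hepatocyte markers were abundant, with ALB, the serum albumin gene, at 2810 to 3668 CPM. Of 10 markers of immune, endothelial and fibroblast cells, 5 had too few counts to be tested, namely PTPRC, CD3E, CDH5, COL1A2 and DES. The most abundant of the 10 was CD68, a lysosomal protein of macrophages that other cells also express, at 112 to 185 CPM. Its counts are uncertain, since CD68 shares exon positions with AC016876.3 and AC016876.2, whose counts came to 379% of its own. For ACTA2 the counts of such partners came to 125% of its own. Of the 5 tested, none had an unadjusted p under 0.05 with edgeR, and all were lower in VEZF1-WT (median log2 fold change −0.34). The score of these 5, taken as for the S-phase genes in the next paragraph, was −0.13, −0.14 and −0.14 in VEZF1-WT, against 0.14, 0.15 and 0.11 in VEZF1-2A. The scores of the groups thus did not overlap, but for each of the 5 genes alone the groups did. Of the 5, 1, 2 and 2 were above their own mean in VEZF1-WT, against 3, 4 and 3 in VEZF1-2A. PECAM1, COL1A1 and PDGFRB among them were below 4 CPM in every library. The part of these transcripts in the results was not tested. All 10 together, mostly CD68, summed to 177, 206 and 151 CPM in VEZF1-WT and to 196, 222 and 159 CPM in VEZF1-2A.

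The S-phase genes differed more between libraries of 1 group than between the groups. Each library was scored as the mean, over the 39 genes, of log2(CPM + 0.1) minus the gene's mean over the 6 libraries. The score was 0.11, −0.08 and 0.05 in VEZF1-WT replicates 1 to 3, and −0.07, −0.13 and 0.13 in VEZF1-2A replicates 1 to 3. Replicate 3 of VEZF1-2A was highest and replicate 2 of VEZF1-2A lowest, although with libraries scaled by their size alone VEZF1-WT replicate 1 (0.106) came above VEZF1-2A replicate 3 (0.093). The means were 0.03 ± 0.09 in VEZF1-WT and −0.03 ± 0.14 in VEZF1-2A (SD, n = 3 each), and their difference of 0.05 was smaller than the SD within the groups (0.12). That difference depended on single libraries. It was −0.0011 without VEZF1-2A replicate 2 and 0.13 without VEZF1-2A replicate 3. In RNA of whole cultures, fewer cells in S phase and less of each transcript per cell cannot be told apart.

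The order of the libraries was carried by most members. Of the 39 genes, 36 were above their own mean in VEZF1-WT replicate 1, 6 in replicate 2 and 28 in replicate 3, against 9, 3 and 36 in VEZF1-2A replicates 1 to 3. Among all 19111 genes tested the share above their own mean was between 50.2% and 52.4% in each library. VEZF1-2A replicate 3 was the highest of the 6 libraries for 20 members and the lowest for 1, and VEZF1-2A replicate 2 was the highest for none and the lowest for 19. Between libraries of the same group, 38 of 39 genes were higher in VEZF1-2A replicate 3 than in replicate 2, with a median difference of 0.26 (log2), and 35 were higher in VEZF1-WT replicate 1 than in replicate 2, with a median of 0.20. Pairs of libraries from different groups ran from even to one-sided. VEZF1-WT replicate 1 had 18 genes higher and 21 lower than VEZF1-2A replicate 3, and VEZF1-WT replicate 2 the same numbers against VEZF1-2A replicate 1. VEZF1-WT replicate 1 had 38 genes higher than VEZF1-2A replicate 2 (median 0.24), while VEZF1-WT replicate 2 had 36 lower than VEZF1-2A replicate 3 (median −0.24).

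**Figure D1:**
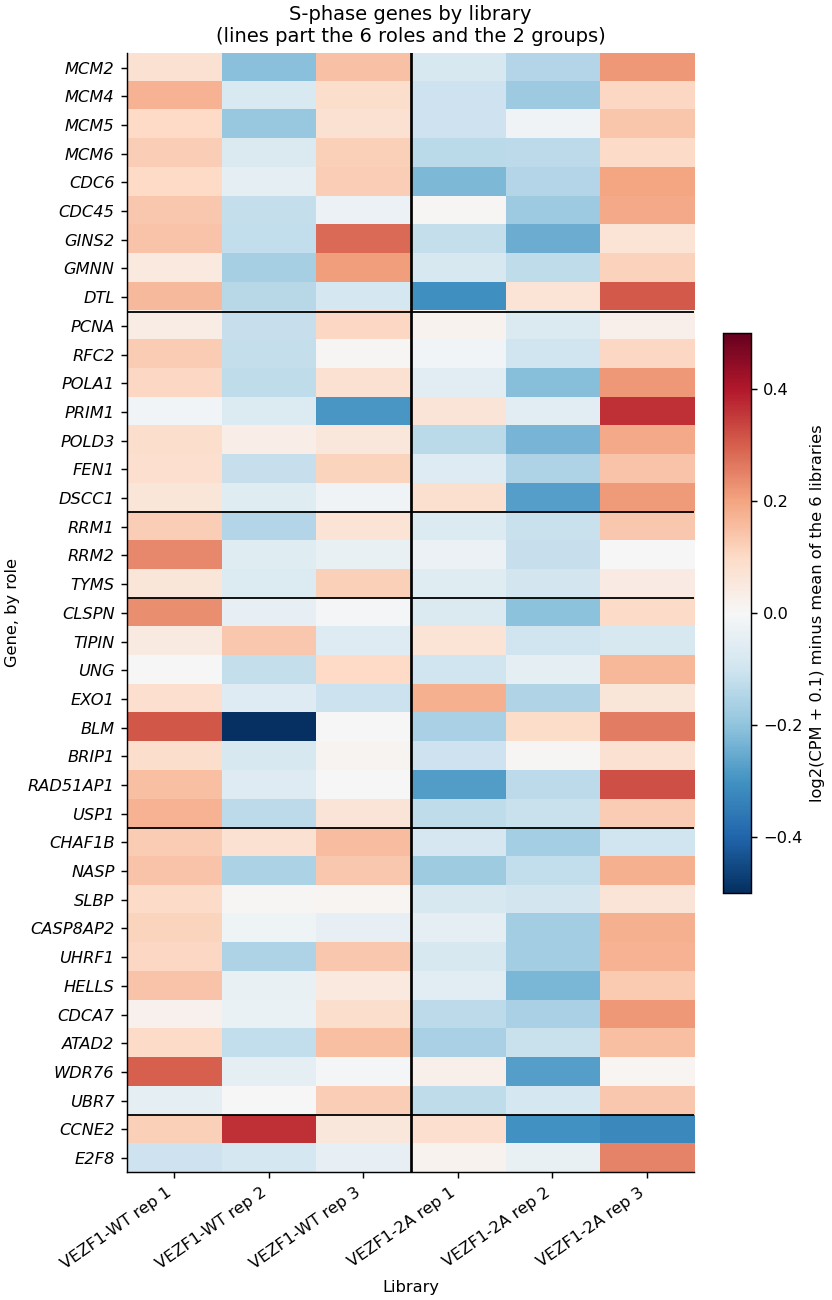
Rows are the 39 S-phase genes, grouped by role, and columns the 6 libraries; colour is log2(CPM + 0.1) minus the gene's mean over the 6 libraries, with red above and blue below that mean. VEZF1-WT replicate 1 and VEZF1-2A replicate 3 are red in 36 of 39 rows each, and VEZF1-2A replicate 2 is blue in all but 3, so the columns differ within each group.

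These differences were small for single genes. The highest library exceeded the lowest by a median of 1.28-fold over the members, from 1.14-fold for BRIP1 and SLBP to 1.75-fold for BLM. On the log2 scale the median range was 0.35, beside 0.39 over all genes tested. The steps were thus of ordinary size, while their order was shared by most members. The correlation of a member with the mean of the other members over the 6 libraries had a median of 0.85, and 24 of 39 (61.5%) were above 0.8. For all other genes tested, the correlation with the mean of the members had a median of 0.01, and 6.41% were above 0.8. The members most like the rest were POLA1 (0.97), MCM4 (0.97) and FEN1 (0.96), and the least were TIPIN (−0.24), CCNE2 (−0.20), PRIM1 (0.28), EXO1 (0.31), E2F8 (0.38) and CHAF1B (0.39). These correlations describe 6 libraries, all genes share those libraries and their scaling, and no test was made.

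Depth and other library measures are given beside this order. Of the libraries with the highest scores, whose order turned with library size alone, VEZF1-2A replicate 3 had the second-lowest total count and VEZF1-WT replicate 1 the second-highest. TMM factors lay between 0.977 and 1.01, with the smallest in VEZF1-2A replicate 3. Mitochondrially encoded genes took 7.94%, 8.03% and 8.28% of the counts in VEZF1-WT, against 8.29%, 8.55% and 8.54% in VEZF1-2A. The 39 genes took 0.336%, 0.288% and 0.327% of the counts in VEZF1-WT, against 0.289%, 0.286% and 0.333% in VEZF1-2A, without any scaling. With the dependence on GC content and exon length taken out of every library, the scores were 0.10, −0.08 and 0.04 in VEZF1-WT, against −0.08, −0.12 and 0.12 in VEZF1-2A. Each library's score kept its sign with library size alone and with DESeq2 size factors. The part of depth and of the mitochondrial share in the order was not tested.

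Most genes of origin licensing and the helicase followed the order closely, and DTL did so least (correlation with the mean of the other members 0.60). All 9 were above their own mean in VEZF1-WT replicate 1 and in VEZF1-2A replicate 3, and none was in VEZF1-WT replicate 2. MCM2, a subunit of the helicase, was at 86.9, 71.3 and 91.4 CPM in VEZF1-WT and at 77.9, 74.5 and 95.9 CPM in VEZF1-2A. The groups overlapped, with the lowest value in VEZF1-WT and the highest in VEZF1-2A. MCM4, MCM5 and MCM6, further subunits, had log2 fold changes (VEZF1-WT over VEZF1-2A) of 0.12, −0.01 and 0.12. CDC6, which helps to load the helicase, was at 110, 99.3 and 112 CPM in VEZF1-WT and at 87.7, 92.7 and 117 CPM in VEZF1-2A. Its highest and its lowest library were both in VEZF1-2A. CDC45 and GINS2, which join the MCM ring to make it active, were at 26.3 to 34.1 CPM and 10.5 to 15.3 CPM. GINS2 shares exon positions with GSE1, whose counts came to 427% of its own. GMNN, which encodes geminin, the inhibitor of licensing, lies at chr6:24774931-24786099 and was the most abundant of these genes per length (50.1 CPM per kb over the 6 libraries). It was at 128, 110 and 142 CPM in VEZF1-WT and at 117, 113 and 134 CPM in VEZF1-2A, and the groups overlapped (127 ± 16.2 against 121 ± 11.1, SD, n = 3 each).

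DTL, at chr1:212035553-212107400, encodes the adaptor of a ubiquitin ligase that removes the licensing factor CDT1 during S phase. It was at 9.24, 7.49 and 7.76 CPM in VEZF1-WT and at 6.65, 8.66 and 10.2 CPM in VEZF1-2A. VEZF1-2A held both the lowest and the highest library, and the log2 fold change was −0.06 (SE 0.15). DTL shares exon positions with INTS7, whose counts came to 92.7% of its own.

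Among the 7 genes of polymerases, clamp and clamp loaders, the sliding clamp spread least over the libraries. This is PCNA, at chr20:5114953-5126626, which was also the most abundant of them per length (58.8 CPM per kb). It was at 84.6, 76.1 and 88.5 CPM in VEZF1-WT and at 83.4, 78.4 and 83.9 CPM in VEZF1-2A. The VEZF1-2A values lay within those of VEZF1-WT, and the log2 fold change was 0.02 (SE 0.07, 95% interval −0.13 to 0.17). RFC2, a subunit of the clamp loader, was at 25.7 to 30.5 CPM, POLA1, the catalytic subunit of the polymerase that starts each new strand, at 29.1 to 39.2 CPM, and POLD3, a subunit of polymerase delta, at 13.6 to 18.2 CPM. FEN1, the nuclease that trims Okazaki fragments, was at 43.8 to 53.9 CPM, and DSCC1, part of an alternative clamp loader, at 7.94 to 11.2 CPM. All 7 genes were above their own mean in VEZF1-2A replicate 3 and none was in VEZF1-2A replicate 2. PRIM1, the primase subunit that makes the RNA primers, lies at chr12:56731296-56752374 and was the member furthest below 0 between the groups. It was at 6.29, 6.06 and 5.18 CPM in VEZF1-WT and at 6.65, 6.11 and 8.23 CPM in VEZF1-2A. The groups overlapped narrowly (log2 fold change −0.26, SE 0.14), and PRIM1 shares exon positions with NACA, whose counts were far more numerous, so that its counts are uncertain.

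The 3 genes of nucleotide supply were above their own mean in both VEZF1-WT replicate 1 and VEZF1-2A replicate 3, and below it in VEZF1-WT replicate 2 and VEZF1-2A replicates 1 and 2. RRM1 and RRM2, the large and small subunits of ribonucleotide reductase, were at 129 to 157 CPM and 99.0 to 126 CPM. TYMS, thymidylate synthase, lies at chr18:657653-673578 and was the most abundant of these per length (52.1 CPM per kb). It was at 131, 120 and 137 CPM in VEZF1-WT and at 121, 118 and 129 CPM in VEZF1-2A, and the groups overlapped (log2 fold change 0.08, SE 0.07). TYMS shares exon positions with ENOSF1 and TYMSOS, whose counts came to 81.5% of its own.

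The genes of fork protection and repair were more mixed. Of the 8, all were above their own mean in VEZF1-WT replicate 1 and 7 in VEZF1-2A replicate 3, the exception being TIPIN, a fork protection factor, which was highest in VEZF1-WT replicate 2 (22.0 CPM). CLSPN, the claspin adaptor of the replication checkpoint, was at 78.3 to 106 CPM, UNG, which removes uracil from DNA, at 24.4 to 29.7 CPM and EXO1, an exonuclease of mismatch repair, at 9.06 to 11.4 CPM. USP1, the ubiquitin protease that acts on PCNA and FANCD2, lies at chr1:62436297-62451804 and was the most abundant of these per length (20.3 CPM per kb). It was at 88.3, 71.6 and 82.0 CPM in VEZF1-WT and at 71.8, 72.6 and 85.7 CPM in VEZF1-2A, and the lowest and highest values were both in VEZF1-WT. BLM, a RecQ helicase at chr15:90717346-90816166, spread most of all 39 genes and was at 8.27, 4.68 and 6.67 CPM in VEZF1-WT and at 5.93, 7.09 and 7.96 CPM in VEZF1-2A. Its groups overlapped fully, and at 1.02 CPM per kb it was the member with the lowest level per length, close to BRIP1, another repair helicase (1.04 CPM per kb). RAD51AP1, a gene of DNA repair, lies at chr12:4538798-4560048 and was at 15.1, 13 and 13.6 CPM in VEZF1-WT and at 11.2, 12.4 and 17.0 CPM in VEZF1-2A. The VEZF1-2A libraries lay on both sides of those of VEZF1-WT (log2 fold change 0.04, SE 0.14).

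Of the 10 genes of chromatin and histone supply, 9 were above their own mean in VEZF1-WT replicate 1, 9 in VEZF1-2A replicate 3 and none in VEZF1-2A replicate 2. NASP, a histone chaperone at chr1:45583846-45618904, was by far the most abundant S-phase gene (122 CPM per kb) and took between 31.4% and 33.5% of the summed CPM of the 39 genes. It was at 1117, 907 and 1109 CPM in VEZF1-WT and at 894, 928 and 1142 CPM in VEZF1-2A. Both the highest and the lowest value were in VEZF1-2A, and the log2 fold change was 0.08 (SE 0.10). Since the score gives each gene equal weight, NASP counted there as 1 gene of 39. SLBP, which binds the stem-loop of histone mRNAs, was at 82.0 to 93.2 CPM, and CASP8AP2, which takes part in the processing of these mRNAs, at 28.4 to 36.4 CPM. UHRF1, which brings the maintenance DNA methyltransferase to new DNA, was at 86.9 to 111 CPM, the chromatin remodeller HELLS at 93.3 to 120 CPM and its partner CDCA7 at 29 to 37.7 CPM. ATAD2, a bromodomain protein, was at 219 to 273 CPM, WDR76 at 3.99 to 5.99 CPM and UBR7 at 16.9 to 20.3 CPM.

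CHAF1B had the smallest p of the 39 genes between the groups. It encodes a subunit of chromatin assembly factor 1, which places histones on newly made DNA, and lies at chr21:36385392-36419015. It was at 14.0, 13.5 and 14.3 CPM in VEZF1-WT and at 12.1, 11.4 and 11.9 CPM in VEZF1-2A. Every VEZF1-WT library lay above every VEZF1-2A library, also VEZF1-WT replicate 2 and VEZF1-2A replicate 3, between which 36 of the 39 members were lower in the former (13.9 ± 0.373 against 11.8 ± 0.363, SD, n = 3 each). The log2 fold change was 0.24 (SE 0.08, 95% interval 0.06 to 0.42), with an unadjusted edgeR p of 0.0140 and an exact permutation p of 0.1, the smallest that 3 libraries against 3 can give. The adjusted p of edgeR was 0.9996. CHAF1B shares exon positions with MORC3, whose counts came to 236% of its own. The sources used here do not say how the authors counted reads at shared positions, so that the counts of CHAF1B are uncertain.

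The cell cycle control genes were CCNE2 and E2F8, and neither followed the shared order closely. CCNE2, cyclin E2, the partner of CDK2 at the entry into S phase, lies at chr8:94879770-94896678. It was at 7.20, 8.55 and 6.90 CPM in VEZF1-WT and at 7.03, 5.34 and 5.27 CPM in VEZF1-2A. The groups overlapped by 1 library, and VEZF1-WT replicate 2, low for most members, was here the highest. The log2 fold change was 0.36 (SE 0.14, 95% interval 0.05 to 0.68), the largest of the 39, with an unadjusted edgeR p of 0.0284, an adjusted p of 0.9996 and an exact permutation p of 0.2. The log2 fold change stayed above 0 with any 1 library left out. It was 0.27 without VEZF1-WT replicate 2, 0.29 without VEZF1-2A replicate 2 and 0.29 without VEZF1-2A replicate 3, and the unadjusted edgeR p in these smaller fits was 0.108, 0.106 and 0.084. CCNE2 shares exon positions with INTS8 and AC087752.4, whose counts came to 203% of its own. E2F8, an E2F protein that represses E2F targets, lies at chr11:19224063-19241620 and was at 5.59, 5.66 and 5.85 CPM in VEZF1-WT and at 6.10, 5.87 and 7.17 CPM in VEZF1-2A. Every VEZF1-2A library was above every VEZF1-WT library, the nearest being 5.87 and 5.85 CPM, and the log2 fold change was −0.16 (SE 0.12, 95% interval −0.42 to 0.10, exact permutation p = 0.1).

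**Figure D2:**
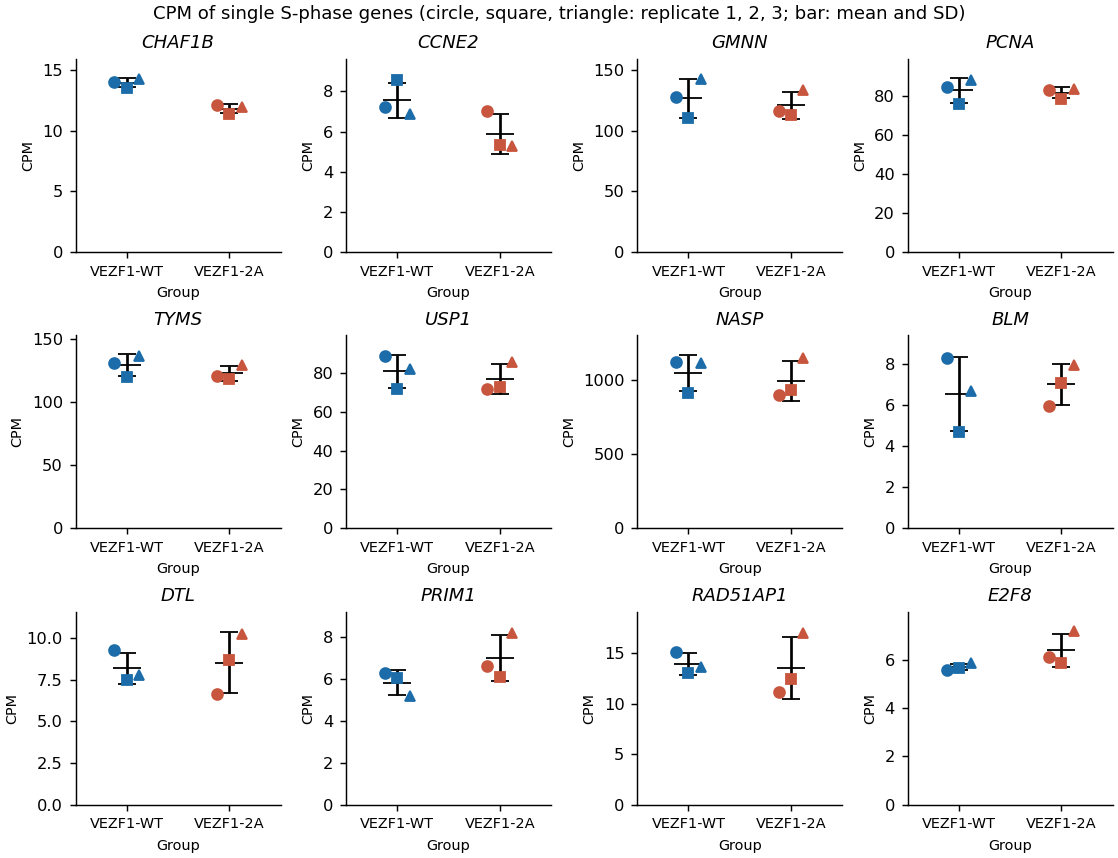
CPM (vertical axis from 0) of 12 S-phase genes in the 3 VEZF1-WT and the 3 VEZF1-2A libraries; points are libraries, with circle, square and triangle for replicates 1, 2 and 3, and bars are the mean and SD of a group. CHAF1B and E2F8 are the panels in which the groups do not overlap, while NASP and GMNN show the spread within each group.

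Between VEZF1-WT and VEZF1-2A, no S-phase gene passed an adjusted p under 0.05 with edgeR, and none did with DESeq2 or limma voom. With edgeR the share of all 19111 genes tested that passed was 0%, and the smallest adjusted p was 0.9996, while DESeq2 passed 3 genes, none of them a member. At an unadjusted p under 0.05, 2 of 39 members were higher in VEZF1-WT with edgeR, CHAF1B and CCNE2, against 0.832% of all genes tested, and none was lower, against 1.3%. DESeq2 and limma voom each called the same 2. The groups did not overlap for 2 members, CHAF1B and E2F8, beside 7.36% of all genes tested, a share near that background. The 21 members whose exons overlap no other counted gene held none at an unadjusted p under 0.05 in a fit of such genes alone, beside 1.8% of the 8547 genes in that fit. CHAF1B and CCNE2 are not among these 21, which held none in the fit of all genes either.

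The direction of the fold changes leaned to VEZF1-WT by little. Of the 39 log2 fold changes, 30 were above 0 and 9 below, with a median of 0.05 and a range from −0.26 (PRIM1) to 0.36 (CCNE2). Over all genes tested the median was 0.00, with 9573 above 0 and 9538 below. The members are not independent of each other, since most of them moved together from library to library. Without VEZF1-2A replicate 2 the number above 0 was 20 of 39, with a median of 0.01. Without VEZF1-2A replicate 3 it was 36 of 39, with a median of 0.13, and 11 members then had an unadjusted edgeR p under 0.05, all higher in VEZF1-WT, beside 2.29% of the 19883 genes tested in that fit. These were CLSPN, NASP, HELLS, POLD3, GINS2, CDC6, MCM6, CDCA7, CHAF1B, MCM4 and ATAD2, and none of them passed the adjusted threshold.

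Of the 39 members, 18 share exon positions with another counted gene, and their counts are uncertain where that gene has many. The percentages given set the total counts of the partners against those of the gene. How many reads fell on the shared positions was not determined. Beside those named above, the counts of such partners came to 100.3% of its own for FEN1 (FADS2), 57.8% for UBR7 (AL110118.2), 36.2% for RRM1 (RRM1-AS1) and 21.7% for CLSPN (AL354864.1), and to less than 10% for the rest.

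The precision of the members rests on the spread between these libraries, which may be technical. Intervals of single genes do not bound a shift that the members share. Their median SE was 0.10 on the log2 scale, and the 95% intervals of 37 members included 0. For 36 members the whole interval lay within 0.5 of 0, and the others were PRIM1, BLM and CCNE2. The median coefficient of variation between libraries, which edgeR calls biological, was 8.90% for the members, beside 10.3% for all genes tested.

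**Figure D3:**
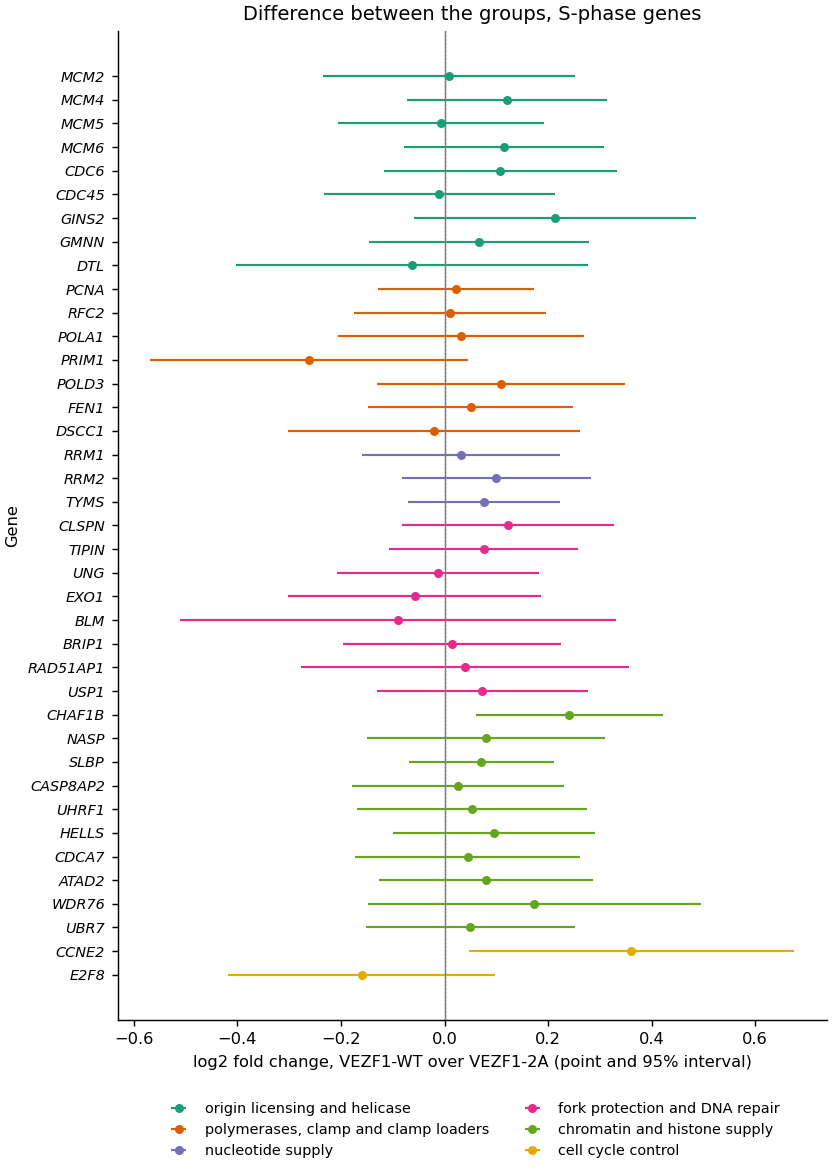
Log2 fold change of each S-phase gene, VEZF1-WT over VEZF1-2A, from edgeR, with its 95% interval and coloured by role. Of the 39 intervals 37 cross the line at 0, and those of CHAF1B and CCNE2 lie above it.

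The other genes of replication and of the cell cycle were set beside the S-phase genes as further lists. Among 46 other replication genes (remaining MCM subunits, origin recognition, polymerases, clamp loaders and histone chaperones), the score was 0.11, −0.09 and 0.04 in VEZF1-WT, against −0.04, −0.08 and 0.06 in VEZF1-2A. These scores had the sign of the S-phase score in every library, were closer to 0 in each VEZF1-2A library, and were highest in VEZF1-WT replicate 1. MCM3, a further subunit of the helicase, was at 437, 347 and 438 CPM in VEZF1-WT and at 383, 382 and 450 CPM in VEZF1-2A. The lowest library of MCM3 was VEZF1-WT replicate 2 and the highest VEZF1-2A replicate 3, as for MCM2. In the group comparison 1 of the 46 had an unadjusted edgeR p under 0.05, ASF1B, a histone chaperone that hands histones to chromatin assembly factor 1, and none was lower. ASF1B was at 3.46, 2.58 and 3.53 CPM in VEZF1-WT and at 2.30, 2.65 and 2.35 CPM in VEZF1-2A. The groups overlapped by 1 library of each (log2 fold change 0.40, SE 0.17, unadjusted edgeR p 0.0413). ASF1B shares exon positions with AC022098.3, whose counts came to 1.42% of its own. The median of the list was 0.04, and its most abundant gene per length was TOP1, topoisomerase 1, whose 6 values from 1920 to 2246 CPM did not follow the order of the S-phase genes.

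Of 28 genes that control the passage from G1 to S (cyclins, kinases, inhibitors, E2F and retinoblastoma proteins), 27 were tested, and CDKN1C had too few counts. None had an unadjusted p under 0.05 in either direction with edgeR, the median log2 fold change was 0.00, and the score moved less, from −0.05 in VEZF1-WT replicate 2 to 0.05 in VEZF1-2A replicate 3. The most abundant per length was CCND1, cyclin D1 (407 ± 33.1 CPM in VEZF1-WT and 424 ± 33.5 CPM in VEZF1-2A, SD, n = 3 each).

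The 37 genes of G2 and mitosis were above and below 0 in the same libraries as the S-phase genes, although VEZF1-WT replicate 2 and not VEZF1-2A replicate 2 was lowest. Their score was 0.14, −0.17 and 0.09 in VEZF1-WT, against −0.11, −0.13 and 0.17 in VEZF1-2A, and 0 of 37 were above their own mean in VEZF1-WT replicate 2 and in VEZF1-2A replicate 1. TPX2, a spindle assembly factor and the most abundant of them per length, was at 337, 286 and 314 CPM in VEZF1-WT and at 283, 269 and 321 CPM in VEZF1-2A. TOP2A, topoisomerase 2 alpha, which untangles the copied chromosomes, was at 564, 425 and 550 CPM in VEZF1-WT and at 448, 423 and 599 CPM in VEZF1-2A. As for the S-phase genes, VEZF1-WT replicate 2 and VEZF1-2A replicates 1 and 2 were low and the other libraries high. None of the 37 had an unadjusted p under 0.05 with edgeR, and the median log2 fold change was 0.04. The S-phase mean and the G2 and mitosis genes come from the same 6 libraries, and 81.1% of these genes had a correlation above 0.8 with the mean of the S-phase genes.

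Hepatocyte markers had another order. Their score was −0.14, −0.17 and 0.26 in VEZF1-WT, against −0.26, 0.08 and 0.23 in VEZF1-2A, so that replicate 3 of each group was highest. AFP, alpha-fetoprotein, a fetal relative of albumin, was at 1926, 2041 and 3640 CPM in VEZF1-WT and at 1761, 2063 and 3479 CPM in VEZF1-2A. VEZF1-WT replicate 1, high for the S-phase genes, was thus low for AFP, and VEZF1-2A replicate 3 was high for both. No hepatocyte marker had an unadjusted p under 0.05 with edgeR between the groups (median log2 fold change −0.05), and none of the 10 had a correlation above 0.8 with the S-phase mean.

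**Figure D4:**
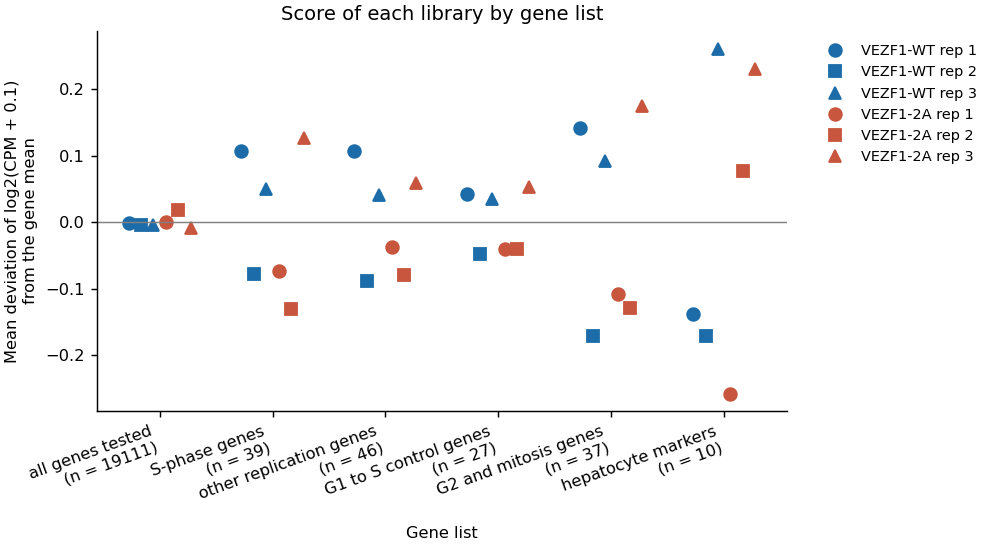
Score of each library (mean over the genes of a list of log2(CPM + 0.1) minus the gene's mean, vertical axis) for all genes tested, the S-phase genes and 4 further lists; blue points are VEZF1-WT and red points VEZF1-2A, with circle, square and triangle for replicates 1, 2 and 3. In the S-phase genes the points of the groups interleave, from −0.13 to 0.13, and the libraries above 0 are those of the G2 and mitosis genes, while all genes tested stay near 0.

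The promoter letters played no part in the rule that chose the S-phase genes. The 20 E2F matches in 15 promoters began between positions −152 and 8 from the start, and 13 genes had one within 100 bases of it. The genes were CLSPN, DTL, EXO1, MCM6, CDCA7, MCM2, CASP8AP2, HELLS, UBR7, GINS2, CDC6, TYMS, UHRF1, PCNA and POLA1. MCM2 held a pair of overlapping matches like those of MCM6, just after the start.

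The site was also frequent in the other replication genes, in 13 of 41 promoters (31.7%), and in the G1 to S control genes, in 6 of 23 (26.1%). It was less so in the genes of G2 and mitosis, in 3 of 32 (9.38%). The cell cycle homology region (CHR) of mitotic genes, written TTTGAA or TTCGAA, was in 3 of 31 S-phase promoters (9.68%), in 26 of 32 promoters of G2 and mitosis genes, in 11.6% of promoters of genes tested and in 16.4% of all. The letters of the NF-Y box, CCAAT, were in 22 of 31 S-phase promoters (71.0%), in 24 of the 32, in 36.8% of promoters of genes tested and in 34.6% of all. The GC box GGGCGG was in 24 of 31 (77.4%), beside 67.5% of promoters of genes tested and 45% of all. Its share was 73.2% in the other replication genes, 78.3% in the G1 to S control genes and 68.8% in the genes of G2 and mitosis. A run of G, which VEZF1 is known to bind, was searched as GGGGGGG and was in 1 S-phase promoter, that of GINS2 (3.23%), beside 6.15% of promoters of genes tested and 5.10% of all. All searches took both strands, and a GC box can overlap an E2F match, as in PCNA. The shares describe these lists, and no match says only that the letters are not in the window.

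**Figure D5:**
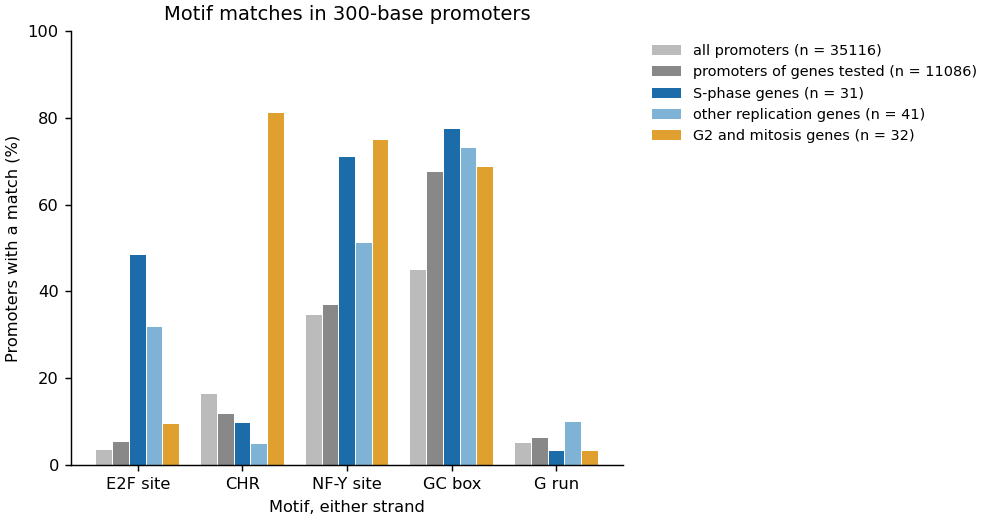
Share of promoters (percent, vertical axis from 0 to 100) that hold each motif on either strand, for all promoters, those of genes tested, the S-phase genes, other replication genes and the genes of G2 and mitosis; promoters span 250 bases before to 50 after the start, and the NF-Y site is CCAAT. The E2F site is in 48.4% of S-phase promoters and 3.31% of all, and the CHR in 9.68% of S-phase promoters, 11.6% of those of genes tested and 16.4% of all.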

How the data were processed

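RNA was made into libraries with a SMARTER mRNA-Seq kit, and the authors deposited 1 table of whole-number read counts per gene in 6 libraries, not normalized. The submitters' processing notes name GRCh38; the aligner, the counter, the annotation and the strand setting are not given in the sources used here. Of 59613 lines, 5 on which the entry of ANK2 was broken were left out. Between 81.0% and 83.0% of counts from 1 to 10 were even numbers, and between 65.7% and 67.5% of those from 11 to 100. A count may thus not stand for 1 independent read, and the depth may be lower than the totals say. The reason was not tested, and the spread between libraries was used for every test. Counts were fitted with edgeR 4.0.16 in R 4.3.3 (filterByExpr with minimum count 10 and minimum total 15, TMM, glmQLFTest, group alone), with Benjamini-Hochberg adjustment over 19111 genes, and all 39 S-phase genes passed the filter. The test was tried on simulated data first. Single values were compared by exact two-sided permutation tests of log2(CPM + 0.1), for which 3 against 3 cannot go below 0.1. Values in every library are given for members with an unadjusted p under 0.05, for the most abundant per length of each role and for the 5 of largest SD, and also, chosen after their values were seen, for MCM2, CDC6, E2F8, MCM3, TOP2A and AFP. The members, roles and further lists were chosen with earlier results of these data known. Alternatives were other scalings and filters, DESeq2 1.42.0, limma 3.58.1 voom, a replicate block, omission of single libraries, halved counts and removal of mitochondrial genes. The score over members without exon overlap was planned. The fit without genes of overlapping exons and the removal of the trend with GC content and length were chosen after seeing the data.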

Additional observations from a re-analysis of the deposited data

How the results depend on the processing

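The count of S-phase genes with an unadjusted p under 0.05 was 2, ranged from 2 to 11 with 1 library left out, and was 11 without VEZF1-2A replicate 3. It was 4 with the replicate number as a block (GINS2, CHAF1B, MCM4 and CCNE2) and 0 with genes of overlapping exons left out. That last fit holds 21 of the 39 members and neither CHAF1B nor CCNE2. No member passed the adjusted threshold under any alternative. Over all genes, 408 had an unadjusted p under 0.05 with edgeR and none passed the adjusted threshold; with the block it was 825 and 6, with DESeq2 219 and 3, with no filter 896 and 16 of 38745 genes, with the stricter filter (minimum count 50) 263, and without VEZF1-2A replicate 3 973. The replicate numbers were not taken as a pairing, since the labels do not say that they pair cultures. The deviations of same-numbered libraries correlated at 0.08, 0.15 and 0.38. VEZF1-WT replicates 1 and 3 correlated best with the VEZF1-2A library of their own number. VEZF1-WT replicate 2 correlated best with VEZF1-2A replicate 1 (0.18). Whether same-numbered libraries share an effect was not tested.

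Each library's score kept its sign under every alternative run, and the difference between the group means ranged from −0.0011 to 0.13 with 1 library left out and from 0.048 to 0.055 otherwise. The median log2 fold change ranged from 0.01 to 0.13 with 1 library left out. The log2 fold change of some members changed sign when 1 library was left out, with a range from −0.026 to 0.16 for GMNN, −0.027 to 0.081 for PCNA, −0.00032 to 0.16 for USP1, −0.30 to 0.091 for BLM, −0.21 to 0.085 for DTL and −0.077 to 0.24 for RAD51AP1. That of CCNE2 ranged from 0.27 to 0.50, with unadjusted edgeR p from 0.00474 to 0.108, and that of CHAF1B from 0.22 to 0.26, with unadjusted edgeR p from 0.0212 to 0.0479. NASP (0.20, without VEZF1-2A replicate 3) and PRIM1 (−0.35, without VEZF1-2A replicate 2) passed an unadjusted p under 0.05 once each. With 3 libraries a group and a smallest library of 28756765 counts, the median SE of a member was 0.10 on the log2 scale.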
